A study of Mus musculus with 9 samples.

Results

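Hox genes encode homeodomain transcription factors that give cells along the head-to-tail axis of the body their positional identity. The mouse carries them in 4 clusters, HoxA to HoxD, and numbers them by paralog group: genes with a low number lie at the 3′ end of a cluster and are used from the hindbrain on, and genes with a high number lie at the 5′ end and are used towards the tail. The forebrain, from which the cortex forms, develops without Hox expression, whereas spinal ganglia form beside trunk levels of the neural tube that use it. The genes described here were the 38 listed Hox genes, of 24181 genes in the files. They were listed by gene family, with earlier results of these data known, and 1 further mouse Hox gene is not analysed here.

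Poly(A) RNA of 9 mouse primary cultures was sequenced, 3 biological replicates for each of 3 cell types. DRG cultures held sensory neurons isolated from dorsal root ganglia of embryos at day 13.5 and kept for about 2 weeks. OPC cultures held oligodendrocyte progenitor cells purified from cortex at postnatal day 6 to 9, kept for 6 to 7 days. Astrocytes came from cortex at postnatal day 1 to 3 and grew for about 21 days to confluence. Pups of either sex gave the OPC and Astrocytes cultures, and the labels name no strain, genotype or treatment for any group. Tissue of origin, donor age and time in culture differ along with cell type between DRG and the glial cultures, so that these cannot be told apart. The level of the spinal column from which ganglia were taken, and the number of embryos pooled, are not given in the sources used here.

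Between 30710093 and 53594210 reads per library were assigned to transcripts. Sensory neuron markers, a list that includes Isl1, Pou4f1 and Avil, summed to 6475 to 6709 CPM (reads scaled to a common library size) in DRG, 10.9 to 16.9 CPM in OPC and 2.52 to 10.7 CPM in Astrocytes, with all 10 detected at 5 CPM or more in DRG. OPC markers summed to 13.2 to 29.1 CPM in DRG, 5100 to 6859 CPM in OPC and 341 to 1311 CPM in Astrocytes, and astrocyte markers to 10.2 to 30.6, 828 to 1149 and 6430 to 8197 CPM in the same order. Markers of other cell types were also found: DRG libraries held 598 to 990 CPM of Schwann and satellite glia markers, of which 6 of 8 reached 5 CPM and S100b alone made up 562 to 922 CPM. The same list summed to 1645 to 3246 CPM in OPC and 449 to 840 CPM in Astrocytes. Most of that was Fabp7, with 1215 to 2457 CPM in OPC and 370 to 808 CPM in Astrocytes. Sox10, which is also on the list of OPC markers, added 377 to 746 CPM in OPC. Fibroblast and mural markers summed to 240 to 475 CPM in DRG and 1.36 to 2.07 CPM in OPC. In Astrocytes replicates 1, 2 and 3 they summed to 426, 4964 and 6237 CPM. Acta2 alone made up 412.5, 4638 and 5996 CPM of these Astrocytes sums, and 4 of the 8 genes reached 5 CPM there. Astrocytes replicate 1 also stood apart with 2855 CPM of microglia markers, against 494 and 459 CPM in the other Astrocytes libraries. In such bulk cultures fewer cells of a type and less RNA per cell cannot be told apart.

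Hox RNA was found in the DRG cultures at levels far above those of the glial ones. The 38 genes summed to 353, 460 and 401 CPM in the DRG libraries, against 0.0447, 0.407 and 0.168 CPM in OPC and 0.301, 0.831 and 0.276 CPM in Astrocytes. In reads this was 10444, 21863 and 15545 in DRG, 2, 20 and 7 in OPC and 16, 35 and 10 in Astrocytes. Even the lowest DRG library lay far above the highest glial one. Means were 404.9 ± 53.5 CPM in DRG, 0.207 ± 0.184 CPM in OPC and 0.469 ± 0.313 CPM in Astrocytes (SD, n = 3 libraries each).

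Every one of the 38 genes had at least 1 read in DRG. A mean of at least 1 CPM was reached by 28 of them in DRG, by 0 in OPC and by 0 in Astrocytes, and 12 reached 10 CPM in DRG. In OPC 24 of the 38 genes had 0 reads in all 3 libraries, and in Astrocytes 14 did. Both glial types lacked reads of Hoxa6, Hoxa9, Hoxa13, Hoxb1, Hoxb2, Hoxc11, Hoxc12, Hoxd8 and Hoxd12. A count of 0 in a glial type allows a level of up to 0.0222 CPM in OPC and 0.0228 CPM in Astrocytes (3 reads over the 3 libraries of a type, counting error only).

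**Figure D1:**
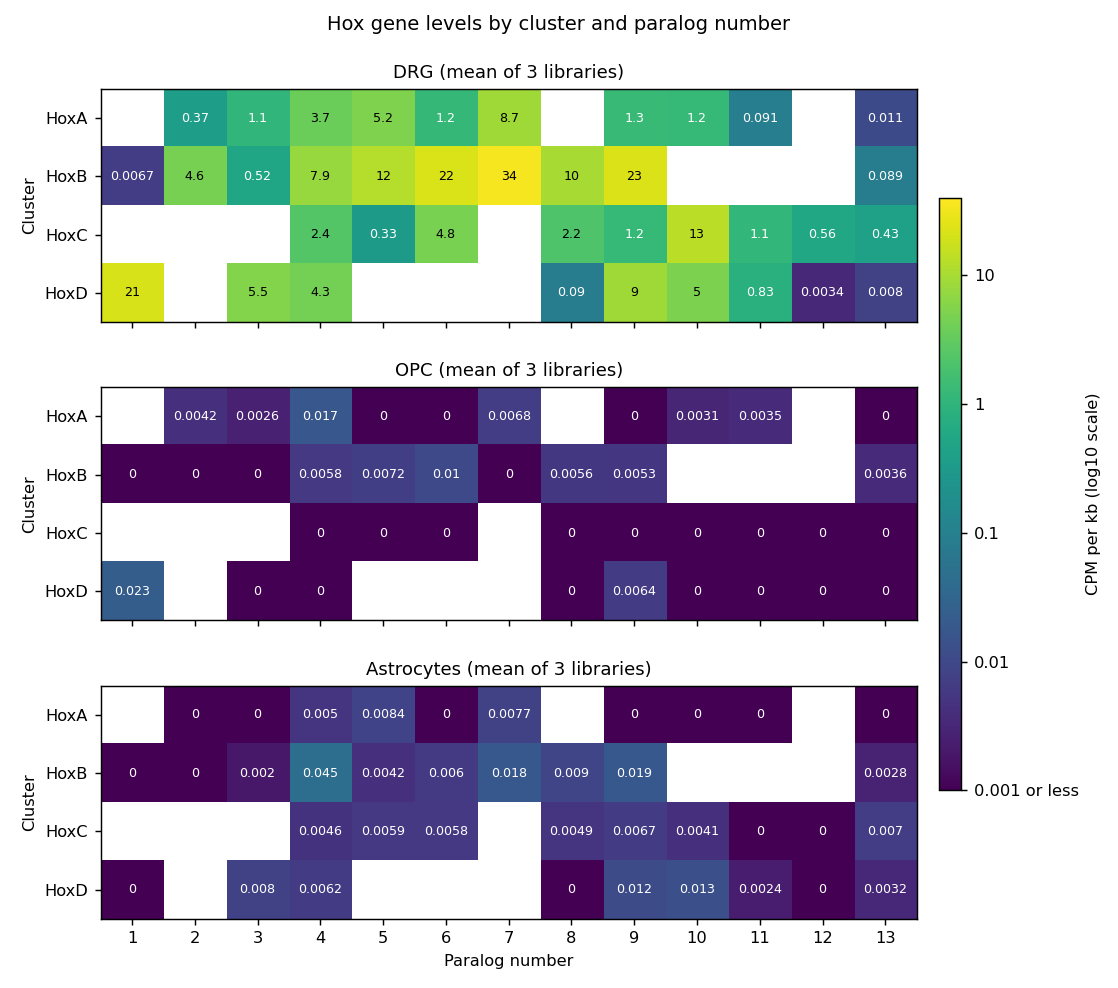
Mean level of each Hox gene in DRG, OPC and Astrocytes (3 libraries each), as CPM per kilobase of the longest transcript on a log10 colour scale, by cluster (top to bottom) and paralog number (left to right). White squares hold none of the 38 genes. DRG is bright from Hoxb4 to Hoxb9 and at Hoxd1, Hoxc10, Hoxd9 and Hoxa7, while OPC and Astrocytes stay at or below 0.0454 throughout.

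Of the 38 genes, 30 had enough reads for the edgeR quasi-likelihood test, and each passed that filter only through its DRG reads, so each had to differ. All 30 were higher in DRG than in OPC (adjusted p from 3.78e-06 to 0.00219), where 28.4% of the 14848 genes tested were called in that direction. All 30 were also higher in DRG than in Astrocytes (adjusted p from 3.41e-06 to 0.00303), against 27.4% of all genes, and 0 of the 30 were lower than in OPC or Astrocytes (31.1% and 32.8% of all genes). The DRG libraries lay above all 3 OPC libraries for 34 of the 38 genes (32.9% of all genes tested) and above all 3 Astrocytes libraries for 34 (31.7%). They lay above all 6 glial libraries for the same 34 (20.8%). The exceptions were Hoxa13, Hoxb1, Hoxd12 and Hoxd13, which had 2, 2, 1 and 2 reads in DRG in all. The other 4 untested genes were Hoxa11, Hoxb13, Hoxc12 and Hoxd8, with 24, 25, 69 and 28 reads in DRG.

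Because so few glial reads were found, most sizes are bounds. For the 20 genes with 0 OPC reads and enough DRG reads, levels in DRG were at least 10.9-fold (Hoxd8) to at least 1979-fold (Hoxb7) higher than in OPC. For 11 genes with 0 Astrocytes reads the bound ran from at least 9.08-fold (Hoxa11) to at least 1850-fold (Hoxd1). Genes with 1 to 3 glial reads gave ratios with wide counting intervals: Hoxb9 was 4133-fold higher in DRG than in OPC (95% counting interval 1144 to 34140, 7068 against 2 reads). Only Hoxa4 and Hoxd1 in OPC, and Hoxb4 and Hoxb9 in Astrocytes, had more than 3 reads.

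**Figure D2:**
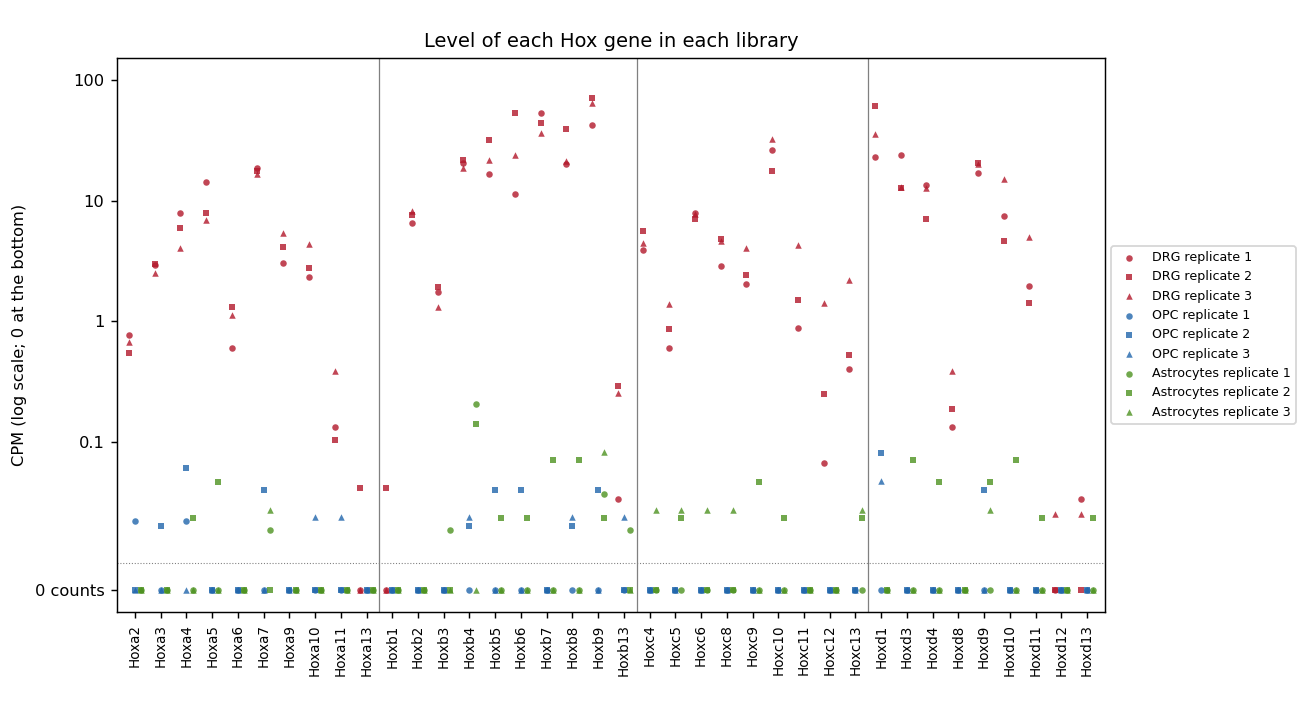
CPM of each of the 38 Hox genes in each of the 9 libraries on a log axis, with libraries of 0 reads drawn at the bottom and clusters HoxA to HoxD separated by vertical lines. DRG points lie above every glial point for 34 genes; no glial library exceeds 0.207 CPM for any gene.

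The 4 clusters were not used equally in DRG. Since reads scale with transcript length (874 to 3367 bases here), levels are compared between genes as CPM per kilobase. HoxB summed to 94.8, 147 and 103 CPM per kilobase in the 3 DRG libraries, HoxD to 38.1, 52.0 and 47.6, HoxC to 24.1, 21.6 and 33.0, and HoxA to 25.8, 21.9 and 20.8. HoxB lay above HoxD, and HoxD above both others, in each of the 3 libraries, whereas HoxC and HoxA overlapped. HoxB took 52.0 ± 5.80% of the summed Hox CPM, HoxD 24.3 ± 1.07%, HoxC 12.4 ± 3.36% and HoxA 11.4 ± 2.56% (SD, n = 3).

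By paralog number, the RNA summed over all clusters was highest in the middle. The 15 central genes (paralogs 4 to 8) summed to 110, 145 and 104 CPM per kilobase in DRG, the 16 posterior genes (9 to 13) to 46.0, 54.0 and 70.7, and the 7 anterior genes (1 to 3) to 26.4, 43.3 and 30.0. The central sum lay above the posterior one, and the posterior above the anterior one, in each library. This order of the pooled sums did not hold within every cluster. In HoxC the posterior gene Hoxc10 had the highest mean (13.3 CPM per kilobase, against 4.80 for Hoxc6, the highest central one). In HoxD the anterior gene Hoxd1 had the highest mean (21.1, against 4.34 for Hoxd4, the highest central one). Per gene, the mean was 7.36, 9.68 and 6.94 CPM per kilobase for central genes, 2.88, 3.37 and 4.42 for posterior genes and 3.77, 6.18 and 4.29 for anterior genes. Central genes thus stayed highest, while anterior genes lay above posterior ones in replicates 1 and 2 but not in replicate 3, with medians of 1.08 CPM per kilobase for anterior and 0.969 for posterior members. Among single paralog groups, which hold 2 to 4 of the genes each, group 7 had the highest mean sum with 43.2 ± 6.86 CPM per kilobase, followed by group 9 with 34.3 ± 7.30 and group 6 with 28.1 ± 16.1. Their order was not fixed: group 7 was highest in DRG replicate 1, group 6 in replicate 2 (45.7 against 42.8 for group 7) and group 9 in replicate 3 (37.7 against 36.5 for group 7). Levels then dropped at the 5′ end: group 10 summed to 19.5 ± 6.98 CPM per kilobase, group 11 to 2.03 ± 1.53, group 12 to 0.566 ± 0.717 and group 13 to 0.534 ± 0.439. In the order of single genes the 3 DRG libraries resembled each other, with rank correlations of 0.958 to 0.969 across the 38 genes, which are not independent of each other.

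Among anterior genes, one stood out. Hoxd1 (chromosome 2, 74762980 to 74765142 in GRCm38.p6), which in the mouse is known for its part in the wiring of pain-sensing neurons, reached 22.8, 60.1 and 35.1 CPM in DRG, against 0, 4 and 2 reads in OPC and 0 reads in each Astrocytes library. All DRG libraries lay far above all glial ones, and DRG replicate 2 was highest. In DRG against OPC its log2 fold change was 9.71 (SE 0.82, adjusted p = 6.39e-05, edgeR), in a test it entered only through its DRG reads. Hoxb1 (chromosome 11, 96365746 to 96368254), the paralog known for the identity of a single hindbrain segment, had 0, 2 and 0 reads in DRG and 0 in every glial library. The same paralog group thus held 4888 DRG reads of one gene and 2 of another. The 250 bases before the start of each, from RefSeq on GRCm38.p6, are shown because these are the most unequal paralogs of 1 group. Capitals mark matches, on either strand, to the CCAAT box (the letters CCAAT), to the TATA box (the letters TATAAA) or to TGATNNAT, a composite site of PBX and HOX proteins. None of these motifs contains another. The Hoxd1 stretch is chr2:74762730-74762979 and the Hoxb1 stretch chr11:96365508-96365757, both on the plus strand. The last bases of the Hoxb1 stretch lie inside the gene span given above.

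Hoxd1: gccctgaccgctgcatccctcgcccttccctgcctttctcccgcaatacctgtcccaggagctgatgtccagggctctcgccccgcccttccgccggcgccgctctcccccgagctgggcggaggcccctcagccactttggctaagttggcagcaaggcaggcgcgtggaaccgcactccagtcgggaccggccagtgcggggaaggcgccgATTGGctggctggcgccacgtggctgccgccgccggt

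Hoxb1: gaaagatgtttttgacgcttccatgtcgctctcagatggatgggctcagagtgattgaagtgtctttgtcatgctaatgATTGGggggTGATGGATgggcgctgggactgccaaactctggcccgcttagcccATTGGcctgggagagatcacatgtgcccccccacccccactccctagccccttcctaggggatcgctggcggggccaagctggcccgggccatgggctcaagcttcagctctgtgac

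Hoxd1 has 71.6% G and C, 24 CpG and 1 CCAAT match in this window. Hoxb1 has 59.2% G and C, 7 CpG, 2 CCAAT matches and 1 PBX-HOX match. A match describes letters only and is no evidence of binding.

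The other anterior genes were modest. Hoxd3, known for neck vertebrae, reached 23.8, 12.7 and 12.9 CPM in DRG, with DRG replicate 1 highest, against 0, 0 and 0 reads in OPC and 0, 3 and 0 reads in Astrocytes. Its ratio to Astrocytes was 683 (95% counting interval 233 to 3316) and to OPC at least 704. Hoxb2, a hindbrain gene, averaged 7.44 ± 0.88 CPM in DRG with 0 reads in all 6 glial libraries. Hoxa3, Hoxb3 and Hoxa2 averaged 2.80 ± 0.26, 1.66 ± 0.31 and 0.666 ± 0.116 CPM in DRG (SD, n = 3). Glial reads of these 3 genes came to 2 in OPC and 1 in Astrocytes.

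The central genes held the largest share of the RNA, led by HoxB. Hoxb7 (chromosome 11, 96285604 to 96290163) had the highest mean level per length of the 38 genes, with 41.1, 34.2 and 28.2 CPM per kilobase in DRG, although Hoxb6 lay above it in DRG replicate 2 with 39.8. Its CPM were 53.0, 44.1 and 36.5 in DRG, against 0 reads in each OPC library and 0, 3 and 0 reads in Astrocytes. Its DRG libraries differed little among themselves and stood clear of every glial one, at least 1979-fold over OPC. Hoxb6, a trunk gene, had 11.4, 52.6 and 23.7 CPM in DRG, against 0, 2 and 0 reads in OPC and 0, 1 and 0 reads in Astrocytes. The spread of Hoxb6 between DRG cultures was the widest among the 12 genes with at least 10 CPM, DRG replicate 2 lying at 3.00 times the mean of the other DRG libraries.

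Hoxb8, which in the mouse shapes dorsal spinal sensory circuits, had 19.9, 39.3 and 21.1 CPM in DRG, against 0, 1 and 1 reads in OPC and 0, 3 and 0 reads in Astrocytes. Hoxb5, known from the neural crest of the gut, had 16.5, 31.9 and 21.8 CPM in DRG, against 0, 2 and 0 reads in OPC and 0, 1 and 0 reads in Astrocytes. DRG replicate 2 was again the highest for both, at 1.92 and 1.67 times the mean of the other DRG libraries, as for Hoxd1 (2.07 times). Hoxb4, known for hindbrain and blood stem cells, was even across DRG with 20.6, 21.7 and 18.4 CPM, against 0, 1 and 1 reads in OPC and 11, 6 and 0 reads in Astrocytes. In DRG against Astrocytes its log2 fold change was 7.33 (SE 0.79, adjusted p = 5.95e-05, edgeR), again in a test entered only through DRG reads. The upstream sequences of Hoxb8 (chr11:96281655-96281904) and Hoxb4 (chr11:96318017-96318266) both lie on the plus strand. They are shown as a pair of HoxB genes that share the DRG pattern, with the same marking in capitals. The Hoxb8 stretch lies inside the span of its gene (96279401 to 96285325), before a start within that span.

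Hoxb8: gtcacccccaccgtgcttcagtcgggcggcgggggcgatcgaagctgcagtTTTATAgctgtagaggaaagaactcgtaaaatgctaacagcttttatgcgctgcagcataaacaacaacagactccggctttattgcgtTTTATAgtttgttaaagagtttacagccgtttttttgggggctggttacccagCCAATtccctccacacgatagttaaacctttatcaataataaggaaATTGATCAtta

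Hoxb4: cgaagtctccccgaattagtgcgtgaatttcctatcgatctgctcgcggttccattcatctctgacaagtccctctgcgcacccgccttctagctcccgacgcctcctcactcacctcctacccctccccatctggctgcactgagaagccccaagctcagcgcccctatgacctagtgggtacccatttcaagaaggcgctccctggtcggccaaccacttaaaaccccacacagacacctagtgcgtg

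They differ in composition: Hoxb8 has 44.4% G and C with 2 TATA matches, 1 CCAAT match and 1 PBX-HOX match, and Hoxb4 has 58.0% with none of these letters. Upstream sequences were at hand for 22 of the 38 genes, with 24 starts. For 20 of the 24, the bases just after the start were found in a transcript of the gene. CCAAT stood in 58.3% of these windows, against 33.8% of 32851 windows of the same length before RefSeq starts. TATAAA stood in 16.7% against 12.4%, and TGATNNAT in 16.7% against 7.68%, each in only 4 of the 24 Hox windows. The median window held 58.6% G and C and 12.5 CpG among the Hox starts, against 52.4% and 6 among all.

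Outside HoxB the central genes had lower mean levels per length than the HoxB ones, except that Hoxa7 (9.16, 8.68 and 8.31 CPM per kilobase in DRG) lay above Hoxb4 (8.02, 8.46 and 7.17). Hoxa7, a thoracic gene, was the most even of the 12 highest, with 18.4, 17.4 and 16.7 CPM in DRG, against 0, 2 and 0 reads in OPC and 1, 0 and 1 reads in Astrocytes. Hoxd4, a gene of the lower hindbrain and neck, had 13.5, 7.07 and 12.8 CPM in DRG, against 0 reads in each OPC library and 0, 2 and 0 reads in Astrocytes. Hoxa5, Hoxc6, Hoxa4, Hoxc4, Hoxc8, Hoxa6 and Hoxc5 averaged between 0.955 CPM (Hoxc5) and 9.67 CPM (Hoxa5) in DRG. Hoxd8 had 4, 9 and 15 reads in DRG and 0 in glia. Its 3 transcripts share most of their exons, so that reads in shared parts may be missing from its level.

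Of the posterior genes, Hoxb9, Hoxc10 and Hoxd9 had the highest levels. Hoxb9 (chromosome 11, 96271330 to 96276595), a gene of the thoracic segments, had the most reads of any Hox gene, with 42.0, 70.5 and 64.0 CPM in DRG, against 0, 2 and 0 reads in OPC and 2, 1 and 3 reads in Astrocytes. In DRG against Astrocytes its log2 fold change was 10.23 (SE 0.64, adjusted p = 3.41e-06, edgeR), where its DRG reads alone had let it pass the filter. Hoxc10, known for the identity of lumbar motor neurons, had 26.3, 17.6 and 32.0 CPM in DRG, against 0 reads in each OPC library and 0, 1 and 0 reads in Astrocytes. Hoxd9, also a lumbar gene, had 16.8, 20.6 and 20.2 CPM in DRG, against 0, 2 and 0 reads in OPC and 0, 2 and 1 reads in Astrocytes. In these 3 genes, as in most of the Hox genes, every DRG library lay above every glial one.

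The other posterior genes were lower. Hoxd10, Hoxa9, Hoxa10, Hoxc9, Hoxd11, Hoxc11 and Hoxc13 averaged between 1.05 CPM (Hoxc13) and 9.01 CPM (Hoxd10) in DRG. Hoxa11, known from forearm and kidney, had 4, 5 and 15 reads, and Hoxb13, a tail and prostate gene, 1, 14 and 10 reads in DRG. Hoxa13 and Hoxd13, which pattern digits and the genital bud, had 2 DRG reads each, and Hoxd12 had 1.

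Several 5′ genes were highest in the same DRG culture. Hoxc13 had 0.406, 0.526 and 2.22 CPM, Hoxc11 0.88, 1.52 and 4.31 CPM and Hoxd10 7.38, 4.61 and 15.1 CPM in DRG replicates 1, 2 and 3. Replicate 3 was the highest in each of them. Of the tested genes in groups 10 to 13, 6 of 6 were highest in DRG replicate 3, at 1.46 to 4.76 times the mean of the other DRG libraries (median 2.75). In group 9 this held for 2 of 4, and all 4 ratios lay above 1 (1.08 to 1.80). In groups 1 to 8 it held for 2 of 20, with ratios of 0.594 to 1.89 (median 0.886). These borders were drawn after the values were seen. With the posterior genes taken as a whole, 8 of 10 tested genes were highest in replicate 3. Over the 11561 genes with at least 1 CPM in DRG, 33.8% were highest in replicate 3, the median ratio was 1.01, and the middle 90% ran from 0.468 to 1.54. Of the untested genes of groups 10 to 13, Hoxc12 (2, 12 and 55 DRG reads) and Hoxa11 were also highest in replicate 3, whereas Hoxb13 was highest in replicate 2, which held both reads of Hoxa13. Groups 11 to 13 together summed to 3.52, 4.15 and 13.7 CPM in the DRG libraries.

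**Figure D3:**
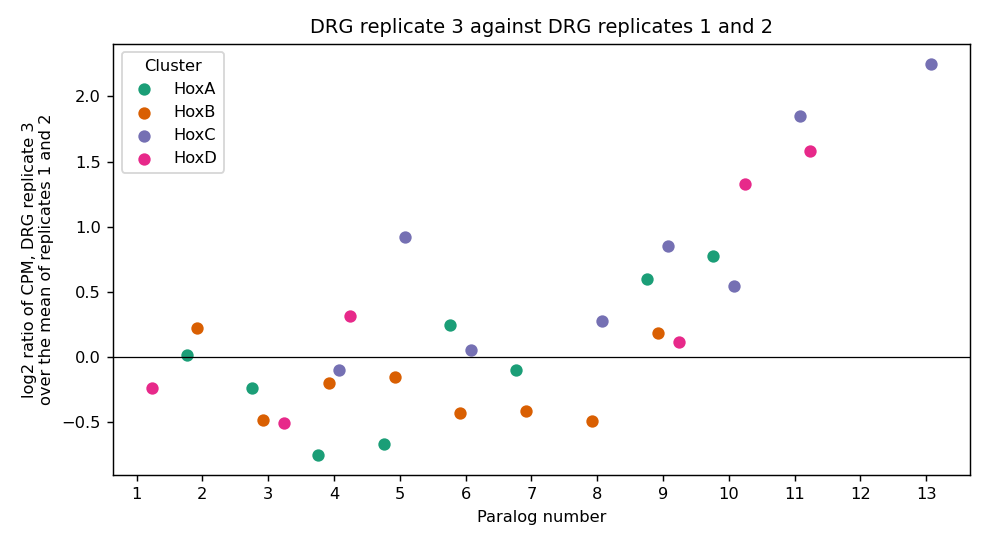
log2 ratio of CPM in DRG replicate 3 over the mean of DRG replicates 1 and 2 (y axis) for each of the 30 tested Hox genes, by paralog number (x axis) and cluster (colour). Genes of groups 9 to 13 all lie above 0, while those of groups 1 to 8 scatter on both sides of it.

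Cell-type markers also differed between these libraries. Schwann and satellite glia markers summed to 598, 659 and 990 CPM in DRG replicates 1, 2 and 3. Most of that was S100b, and the other 7 genes summed to 35.8, 19.5 and 68.7 CPM. Fibroblast and mural markers summed to 475, 240 and 468 CPM. Spinal cord and motor neuron markers summed to 42.5, 84.8 and 116 CPM, 1 of the 5 reaching 5 CPM. Almost all of the spinal sum was Isl2, which sensory neurons also use, while Mnx1 and Chat had at most 0.0631 and 0.0338 CPM and Lhx3 was at 0 in all 3. The Schwann and spinal sums were thus highest in replicate 3 along with the 5′ Hox genes. Their part in the result was not tested.

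The shares of reads given to each isoform differed between the DRG libraries. Of Hoxa10 reads, 27.5%, 36.6% and 42.0% belonged to the shorter isoform in DRG replicates 1, 2 and 3. Of Hoxd11 reads, 63.8%, 77.6% and 91.3% belonged to a transcript annotated as noncoding. That transcript had 37, 52 and 178 reads and the coding one 21, 15 and 17, so the higher Hoxd11 count of replicate 3 lay in the noncoding transcript. The coding Hoxd11 transcript had most reads in replicate 1 and thus did not share the rise of the 5′ genes in replicate 3. These shares are not scaled to length and so do not rank the isoforms of a gene by level. Exon bases not shared with the other isoform numbered 577 in the shorter and 1706 in the longer Hoxa10. For Hoxd11 they numbered 845 in the coding and 3101 in the noncoding transcript. Accessions of Hoxa9, Hoxa10, Hoxb3, Hoxd8 and Hoxd11 share exons with another accession of the same gene, so that reads of shared parts may be missing from these counts. The 2 accessions of Hoxa9 have the same exon bases, and all of its reads stood under one of them.

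The few Hox reads in glia were spread over many genes. In OPC 14 genes had at least 1 read, with Hoxd1 the highest at 6 reads (0.0432 CPM on average). In Astrocytes 24 genes did, with Hoxb4 the highest at 17 reads (0.116 CPM). OPC replicates 1, 2 and 3 detected 2, 10 and 6 of the 38 genes, and Astrocytes replicates 5, 18 and 8, while DRG libraries detected 35, 36 and 36. As a share of the DRG mean, Hox CPM were 0.011%, 0.101% and 0.0416% in OPC and 0.0743%, 0.205% and 0.0683% in Astrocytes. The 10 sensory neuron markers together stood at 0.166%, 0.166% and 0.257% of their DRG mean in OPC and 0.0472%, 0.163% and 0.0383% in Astrocytes, highest in OPC replicate 3 and Astrocytes replicate 2. Replicate 2 had the highest share of Hox reads in both glial types, whereas the marker share peaked in the same library in Astrocytes only. Whether DRG-derived reads account for these counts was not tested.

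**Figure D4:**
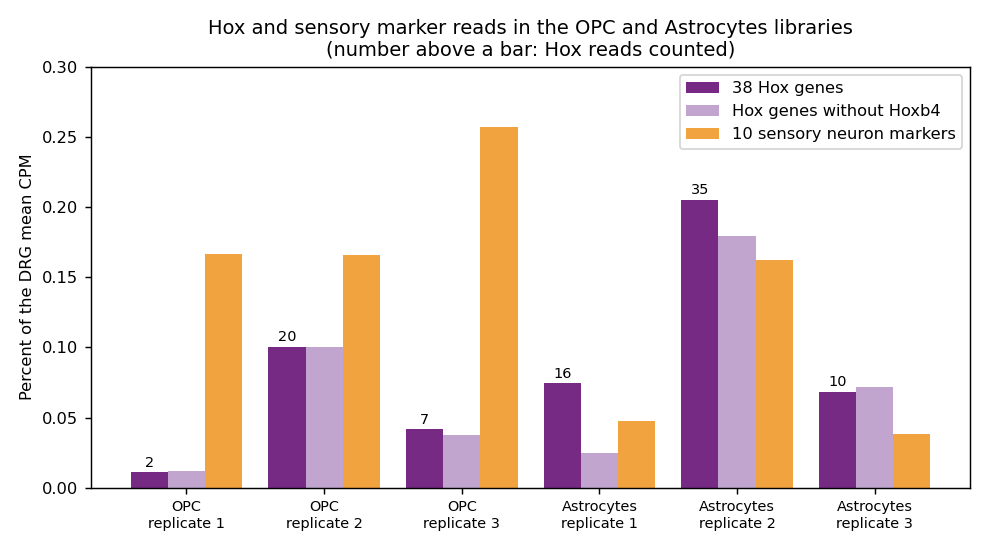
CPM in each OPC and Astrocytes library as a percentage of the mean of the DRG libraries, for the 38 Hox genes, for the 37 without Hoxb4, and for the sum of the 10 sensory neuron markers. Numbers are Hox reads. Replicate 2 is highest for Hox reads in both glial types, while the markers are highest in OPC replicate 3 and Astrocytes replicate 2.

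Between the glial types almost nothing could be told at this depth. Hoxb4 was the 1 gene called, lower in OPC (0, 1 and 1 reads) than in Astrocytes (11, 6 and 0 reads), with a log2 fold change of −2.83 (SE 1.03, adjusted p = 0.0444, edgeR). This compares with 25.5% of all genes lower in OPC. For all 38 genes the OPC and Astrocytes libraries overlapped, whereas all 3 OPC libraries lay above all 3 Astrocytes libraries for 31.8% of all genes. The Hoxb4 call was lost in 10 of 17 alternative settings, among them all but 1 of the omissions of a single library (adjusted p from 0.00435 to 0.158 over the 17). Without Astrocytes replicate 1, which held 11 of the 17 reads and the most microglia markers, the log2 fold change was −2.13 (adjusted p = 0.154). Hoxd1 pointed the other way, with 6 OPC reads against 0 in Astrocytes (at least 1.94-fold, adjusted p = 0.0755), and 0 Hox genes were called higher in OPC, against 26.3% of all genes. At an unadjusted p under 0.05 there were these 2 genes, and DESeq2 called both of them.

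Noncoding genes within the clusters had reads mainly in DRG. Of 22 listed, 13 were in the files and 2 had enough reads to test, and both were higher in DRG. With 0 glial reads these 2 also passed the filter only through DRG and had to differ. Haglr, a noncoding RNA between Hoxd3 and Hoxd1, had 11.7, 27.0 and 19.3 CPM in DRG and 0 reads in every glial library, at least 926-fold over OPC and at least 899-fold over Astrocytes. Its level ran at 0.512, 0.449 and 0.55 times that of Hoxd1 in the 3 DRG libraries. Hotair, the noncoding RNA between Hoxc11 and Hoxc12, had 1.08, 0.821 and 3.05 CPM in DRG, highest in replicate 3, and 0 reads in glia (at least 73.7-fold over OPC and 71.5-fold over Astrocytes). Hottip and the 6 microRNA hairpins of the clusters had 0 reads throughout, as far as poly(A) libraries can show them.

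TALE cofactors, the homeodomain proteins that bind DNA together with HOX proteins, were found in all 3 cultures, Meis2 and Meis3 apart. Of 9 genes 7 were tested: 1 was higher and 2 were lower in DRG than in OPC (28.4% and 31.1% of all genes), and 2 were higher and 2 lower in DRG than in Astrocytes (27.4% and 32.8%), counts near those shares. The median log2 fold change of the list was −0.34 against OPC and −0.62 against Astrocytes, beside −0.08 and −0.13 over all genes. Pbx2 was modestly higher in DRG, with 64.1, 69.1 and 80.5 CPM, against 50.4, 35.9 and 44.1 CPM in OPC and 47.7, 43.5 and 36.3 CPM in Astrocytes (log2 0.71 and 0.74, adjusted p = 0.0105 and 0.00841, edgeR). Meis1 was lower in DRG than in both glial types (log2 −1.60 and −1.80, adjusted p = 0.00375 and 0.00202). Pbx3 was lower in DRG than in OPC (log2 −1.53, adjusted p = 0.00996, and 0.054 without OPC replicate 3). Pknox2 was higher in DRG than in Astrocytes (log2 1.68, adjusted p = 0.00215) and likewise in OPC (log2 1.92 against Astrocytes, adjusted p = 0.00148). Pbx4 was lower in DRG than in Astrocytes (log2 −0.89, adjusted p = 0.0215). This did not hold in 4 of 18 other settings, among them the omission of DRG replicate 1, DRG replicate 2 or Astrocytes replicate 1 (adjusted p up to 0.0841). Meis2 had 0 reads in every library, with 6 transcripts counted apart, so its level is unknown. Meis3, with 4 transcripts counted apart, had 0, 2 and 0 reads in DRG, 3, 4 and 2 in OPC and 1, 0 and 2 in Astrocytes.

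Genes around the clusters, some of them with other genes in between, were called in both directions. Of 18 in the files 12 were tested: 2 were higher and 3 lower in DRG than in OPC (28.4% and 31.1% of all genes), 5 higher and 5 lower in DRG than in Astrocytes (27.4% and 32.8%), and 3 higher and 3 lower in OPC than in Astrocytes (26.3% and 25.5%). The counts against OPC, and those of OPC against Astrocytes, are near these shares. Snx10, beyond HoxA, was higher in DRG with 9.54, 23.3 and 22.5 CPM, against 2.75, 4.40 and 3.06 CPM in OPC and 2.88, 3.96 and 3.18 CPM in Astrocytes (log2 2.44 and 2.47, adjusted p = 0.000663 and 0.000639). Ttll6, a tubulin-modifying enzyme gene beyond HoxB, was highest in Astrocytes: 0.44, 0.842 and 0.387 CPM in DRG and 0, 0.0407 and 0.0241 CPM in OPC, against 37.6, 3.77 and 8.37 CPM in Astrocytes. It was lower in DRG than in Astrocytes (log2 −4.88, adjusted p = 0.00146) and higher in DRG than in OPC (log2 4.50, adjusted p = 0.00814). Against OPC, the heterochromatin protein genes Cbx5 and Cbx1, beyond HoxC and HoxB, were lower in DRG (log2 −1.72 and −1.58, adjusted p = 0.000978 and 0.000455). Evx1 and Evx2, the homeobox genes at the 5′ flank of HoxA and HoxD, had 1 and 0 reads in DRG.

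Of the ParaHox and Cdx genes, relatives of the Hox clusters, the Gsx pair was found in glia. These 2 were the ones tested of 6, and they passed the filter only through glial reads. Gsx1, a gene of ventral forebrain progenitors, had 0, 1 and 0 reads in DRG, against 57.3, 114 and 113 CPM in OPC and 4.25, 0.926 and 4.26 CPM in Astrocytes. In OPC against Astrocytes its log2 fold change was 4.91 (SE 0.61, adjusted p = 0.000241, edgeR). Gsx2 had 0 reads in DRG, against 0.313, 1.42 and 0.962 CPM in OPC and 0.244, 0.19 and 0.221 CPM in Astrocytes (log2 2.03 for OPC against Astrocytes, adjusted p = 0.0285). The Gsx2 call was lost in 7 of 17 other settings, among them the replicate block (adjusted p = 0.0773) and the omission of any Astrocytes library or of OPC replicate 2 or 3 (up to 0.136 over the 17). Cdx1, Cdx2, Cdx4 and Pdx1 had too few reads to test, with 3, 0, 4 and 2 in DRG, 0 in OPC and, for Cdx2, 1 in Astrocytes.

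Retinoic acid turns Hox genes on in the embryo, and its synthesis genes differed by culture. Of 11 tested, 2 were higher and 1 was lower in DRG than in OPC, 3 higher and 6 lower in DRG than in Astrocytes, and 0 higher and 6 lower in OPC than in Astrocytes. Over all genes these shares were 28.4% and 31.1%, 27.4% and 32.8%, and 26.3% and 25.5%, so that 3 of 11 higher than in Astrocytes is near the background. The median log2 fold change of the list was 0.69 for DRG against OPC and −1.36 for DRG against Astrocytes. Aldh1a2, the main retinoic acid producing enzyme of the embryonic trunk, had 12.7, 1.94 and 5.29 CPM in DRG, against 0.201, 0.102 and 0.193 CPM in OPC and 0.0188, 0.309 and 0.194 CPM in Astrocytes (log2 5.31 and 5.27, adjusted p = 0.00116 and 0.00122). Aldh1a1, another such enzyme, had 2.84, 1.98 and 4.001 CPM in DRG and 0.738, 0.834 and 1.13 CPM in OPC, against 950, 118 and 308 CPM in Astrocytes (log2 −7.29 for DRG against Astrocytes, adjusted p = 7.17e-05). Rdh10, which makes the precursor retinal, was lower in DRG than in OPC (log2 −1.36, adjusted p = 0.00176) and than in Astrocytes (log2 −5.02, adjusted p = 2.98e-06). The receptor Rxrg was higher in DRG than in both (log2 3.42 and 4.93, adjusted p = 0.00229 and 0.00065), and the receptor Rarb and the binding protein Crabp1 were lower in DRG than in Astrocytes (log2 −3.95 and −5.12, adjusted p = 0.000466 and 0.00126). Crabp1 had 11.2, 2.04 and 2.21 CPM in Astrocytes replicates 1, 2 and 3. Its log2 fold change ran from −5.76 to −3.76 over 18 other settings.

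Polycomb proteins hold Hox clusters silent and Trithorax proteins keep them active. Of 17 such genes tested, 1 was higher and 9 were lower in DRG than in OPC, 2 higher and 5 lower in DRG than in Astrocytes, and 6 higher and 2 lower in OPC than in Astrocytes. Over all genes these shares were 28.4% and 31.1%, 27.4% and 32.8%, and 26.3% and 25.5%. The 5 of 17 lower in DRG than in Astrocytes is near its share of 32.8%. The median log2 fold change of the list was −0.71 for DRG against OPC and −0.38 for DRG against Astrocytes. Ezh2, the Polycomb methyltransferase of dividing cells, had 0.135, 0.105 and 0.181 CPM in DRG, against 9.16, 13.8 and 7.46 CPM in OPC and 1.52, 5.96 and 4.78 CPM in Astrocytes (log2 −6.15 and −4.84, adjusted p = 5.06e-05 and 0.000151). Its relative Ezh1 was higher in DRG than in OPC (log2 2.08, adjusted p = 0.00116), with 50.3, 65.5 and 72.1 CPM in DRG against 20.3, 9.75 and 14.2 CPM in OPC. The Polycomb subunits Bmi1, Rnf2 and Eed were lower in DRG when set against OPC (log2 −2.59, −1.65 and −1.49, adjusted p = 0.000201, 0.00731 and 0.000422) and against Astrocytes (log2 −1.15, −1.35 and −1.23, adjusted p = 0.013, 0.0185 and 0.00124). Against Astrocytes the Bmi1 call was lost without DRG replicate 2 (adjusted p = 0.0545) and the Rnf2 call without DRG replicate 2 or 3 (0.0708 and 0.0511). In OPC against Astrocytes Cbx2 was higher (log2 2.52, adjusted p = 0.000131) and Cbx7 lower (log2 −2.51, adjusted p = 0.0146, and log2 −1.05 with adjusted p = 0.0259 without Astrocytes replicate 1). Egr2, a regulator of Hox genes in the hindbrain, was lower in DRG than in OPC (log2 −2.16, adjusted p = 0.0359). The Egr2 call was lost in 7 of 18 other settings, among them the replicate block (adjusted p = 0.0761) and the omission of DRG replicate 2 or 3 or OPC replicate 2 or 3 (up to 0.154 over the 18).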

How the data were processed

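Poly(A) RNA libraries were made with a stranded mRNA kit, per the labels' protocols. Per the submitters' processing notes, TopHat2 placed the reads on mm10 and HTSeq counted them. Which versions, annotation, overlap mode and strand option were used is not given in the sources used here. What the authors deposited are unnormalized counts, 1 value per RefSeq transcript and library. Reads the authors left unassigned (37.1 to 46.9% of all reads, of which ambiguous reads made up 22.0 to 24.7% of all reads) were left out.

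Of 33787 accessions, 33315 found a gene name in RefSeq (GRCm38.p6) and 193 in GENCODE vM21, and 279 kept their accession. Counts were added per gene. CPM used TMM-scaled library sizes (edgeR 4.0.16, R 4.3.3). Lengths came from GENCODE vM21. The test was edgeR's quasi-likelihood F-test on all 9 libraries (filterByExpr, minimum count 10, 6 residual degrees of freedom), with Benjamini-Hochberg adjustment over 14848 genes and a threshold of 0.05; DESeq2 1.42.0 and other settings were alternatives. The test was checked on simulated counts. Floors are 3 counts over a group, intervals are exact 95% counting intervals, and both cover counting error only, since reads carry no molecular identifiers. Where a gene overlaps an antisense gene (Hoxa11 and Hoxa11os, Hoxa3 and Hoxaas3), reads cannot be told apart without the strand setting.

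The members and gene lists were chosen with earlier results of these data known. Values of every library are given for the 12 genes with the highest mean CPM in DRG and for genes called in OPC against Astrocytes; of each other list, the 4 called genes with the largest fold changes per comparison were eligible. The values given for further genes of the 5′ ends and of the lists were chosen after they were seen. Results for 1 listed gene are not reported here.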

Additional observations from a re-analysis of the deposited data

How the results depend on the processing

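Hox genes higher in DRG than in OPC or Astrocytes numbered 30 of 30 tested under RLE size factors, library size alone, DESeq2, the fit of only the 6 libraries compared, counts per accession and a fold of at least 2, 34 of 38 without a filter, 20 of 20 with a mean of at least 1 CPM, and 30 to 32 when 1 library was left out; each called every gene it tested except the fit without a filter. Apart from the fit without a filter, the Hox genes entered these fits only through their DRG reads. Their higher level in DRG therefore had to be called, and its direction had to hold. Replicate numbers did not pair the libraries (correlations of same-numbered deviations from −0.0357 to 0.128). With the replicate block 30 Hox genes stayed higher in each DRG comparison, and 0 were lower in OPC than in Astrocytes, since Hoxb4 had an adjusted p of 0.0795. Hox genes lower in OPC than in Astrocytes numbered 0 to 1 when 1 library was left out and 0 without Astrocytes replicate 1 and OPC replicate 3. Without OPC replicate 2 the 1 gene was Hoxb9 (log2 −4.03, adjusted p = 0.0366). Hox genes higher in OPC numbered 1 with DESeq2 (Hoxd1, adjusted p = 0.0394) and 0 to 1 when 1 library was left out (1 without OPC replicate 1). The fit of only the 6 OPC and Astrocytes libraries tested no Hox gene. The summed DRG level was 210.0 per kilobase, a change of unit. No fold change turned direction among the tested Hox genes in the DRG comparisons, Hoxb4, Hoxb9 and Hoxd1 in OPC against Astrocytes, and the called genes of the other lists. The order of genes by level per length kept a rank correlation of 0.99 with the shortest transcript as length, and of at least that with exon bases no other accession shares, a setting chosen after the data were seen. Several counts of the other lists moved by over 1.5 times. Neighbouring genes higher in DRG than in Astrocytes numbered 3 rather than 5 in 8 settings (library size alone, no filter, and leaving out any Astrocytes library, DRG replicate 2 or 3, or OPC replicate 2), and those lower in OPC than in Astrocytes 5 rather than 3 without OPC replicate 3. Noncoding genes higher in DRG numbered 4 without a filter and 1 at a mean of at least 1 CPM. ParaHox genes higher in OPC numbered 1 rather than 2 wherever Gsx2 was lost or not tested, and those lower in DRG 1 at a mean of at least 1 CPM or, against Astrocytes, with only the 6 libraries compared. Chromatin genes higher in DRG than in OPC numbered 2 to 3 rather than 1 in 8 settings, those higher in OPC than in Astrocytes 3 rather than 6 without OPC replicate 3, and those lower in DRG than in Astrocytes 8 with library size alone and 2 without DRG replicate 2. Retinoic acid genes higher in DRG than in OPC numbered 5 with DESeq2, 4 without Astrocytes replicate 1 or with only the 6 libraries compared, and 1 at a mean of at least 1 CPM. TALE genes lower in OPC than in Astrocytes numbered 1 rather than 0 with library size alone, DESeq2 or without DRG replicate 1. The cause was not tested.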
